A study of Homo sapiens with 6 samples.

Results

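Small nucleolar RNA host genes carry small nucleolar RNAs (snoRNAs) in their introns. Most of the genes described here are named SNHG followed by a number. The host transcript is spliced, and the snoRNA is trimmed out of the removed intron and joins proteins that modify ribosomal RNA and other RNAs in the nucleolus or in Cajal bodies. Many of the spliced host RNAs encode no protein. Several, GAS5 among them, are known to begin with a terminal oligopyrimidine (TOP) sequence, as ribosomal protein mRNAs do, and to be degraded by nonsense-mediated decay when they are translated.

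The genes were chosen by symbol: 28 SNHG genes and 6 others known as hosts (GAS5, ZFAS1, DANCR, EPB41L4A-AS1, TAF1D and RACK1), 34 of the 60605 genes in the table. A mean of 1 FPKM (fragments per kilobase of gene length, scaled for library depth) over the 6 libraries, counted across both groups, then set which were tested. It was reached by 24 host genes, and each of the 24 also had a mean of at least 1 FPKM in each group. SNHG25, with a mean of 1.12 FPKM, lay just inside this limit, and SNHG10, with 0.923, just outside. The genes were proposed with results of this comparison known, so the counts of genes that changed are a description.

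The data are RNA sequencing of Huh-7 cells, an established human hepatoma line. All libraries came from cells given oleic acid (100 µM, 24 h) to load them with lipid and then starved. The control group (3 libraries) received DMSO, that is 0 µM pectolinarigenin, and the treated group (3 libraries) received 100 µM of the plant flavone pectolinarigenin for 24 h. Whether the 3 libraries of a group were grown as separate cultures is not stated in the labels, and the p-values therefore reflect library-to-library spread that may be technical.

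Total counts were 15140022 to 20311261 per library, and treated library 3 stood apart from the other treated libraries on the second principal component (9.64% of the variance, against 71.8% for the first, which separated the groups). Of 12829 tested genes, 3243 (25.3%) rose and 3243 (25.3%) fell at an adjusted p under 0.05 (edgeR's quasi-likelihood test, Benjamini-Hochberg over all tested genes). All 10 hepatocyte markers were detected, with ALB at 3340 to 5518 FPKM, and 9 of them fell (summed level 12682 to 12896 FPKM in control and 9137 to 9943 in treated libraries). Of the markers of other cell types, PTPRC did not exceed 0.01 FPKM and KDR, DCN and COL1A2 were at 0. Over all of their lists, the 5 fibroblast markers summed to 0.36 to 0.49 FPKM in control and 0.13 to 0.15 in treated libraries, and the 4 endothelial markers to 2.32 to 2.63 and 1.16 to 1.37. The 5 leukocyte markers summed to 42.6 to 43.0 and 54.9 to 78.7 FPKM, nearly all of it LYZ, which rose by 0.67 on the log2 scale. The part of these shifts in the host gene values was not tested. In bulk RNA, a change in the number of cells of one kind and a change in RNA per cell cannot be told apart.

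The annotated starts of the host genes are shown first because a TOP start is what many of them are known for. RefSeq promoter windows (GRCh38.p14) were matched by symbol for 20 of the 24 tested host genes. Each line runs 5′ to 3′ from 10 bases before the annotated start to 20 bases into the transcript, and capitals mark the first run of a C followed by at least 4 pyrimidines whose C lies within 10 bases of the start.
SNHG32: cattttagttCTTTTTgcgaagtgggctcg
SNHG5: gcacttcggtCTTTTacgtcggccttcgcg
ZFAS1: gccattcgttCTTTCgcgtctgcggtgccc
SNHG12: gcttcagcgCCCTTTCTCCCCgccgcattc
TAF1D: aatagccaaCCCTTTTCTTCCgcacggttg
RACK1: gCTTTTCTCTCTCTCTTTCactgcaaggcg
SNHG16: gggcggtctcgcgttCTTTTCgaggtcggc
SNHG1: gagattcgttctcatttttctactgctcgt
The windows lie at chr6:31834906-31834935 (SNHG32, plus strand), chr6:85678714-85678743 (SNHG5, minus), chr20:49278632-49278661 (ZFAS1, plus), chr1:28581854-28581883 (SNHG12, minus), chr11:93741476-93741505 (TAF1D, minus), chr5:181243887-181243916 (RACK1, minus), chr17:76557754-76557783 (SNHG16, plus) and chr11:62855866-62855895 (SNHG1, minus). In SNHG32, SNHG5 and ZFAS1 the run begins exactly at the annotated first base. In SNHG4, which rose, and SNHG19, which did not pass, a later run that is not the marked one also begins there. A run whose C lies within 10 bases of the start was present in 15 of the 20 host gene windows (75%), against 33.8% of 8979 windows of tested genes. It was in 11 of the 14 matched host genes that rose and in 4 of the 6 that did not pass. Host genes with and without a run were thus found in both classes. The 5 without one at the RefSeq start were SNHG1, GAS5, SNHG3, EPB41L4A-AS1 and SNHG30.

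The transcript starts in GENCODE 29 were described in the same way. Of the 24 tested host genes, 16 (66.7%) had at least 1 annotated transcript that begins with C and 4 pyrimidines, against 15.6% of 12755 tested genes. Such a transcript was present for 9 of the 15 that rose (60%) and for 7 of the 9 that did not pass (77.8%). This order of the classes is the reverse of that in the RefSeq windows. The host genes also had more annotated transcripts (median 8.5 against 7), which gives them more chances of a match. For SNHG1, 1 of 25 transcripts began in this way. For GAS5 it was 6 of 29, and the first 25 bases of one of them, GAS5-219, are printed here with the pyrimidine run in capitals.
GAS5: CTTTTCgaggtaggagtcgactcct
The E-box letters CACGTG were in 2 of the 20 windows of 300 bases (SNHG7 and SNHG30; 10.4% of windows of tested genes). The letters TGATGCAA were in 0 of the 20 and in 0.479% of windows of tested genes. Both strands were searched, and a match is a description of letters only.

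**Figure D1:**
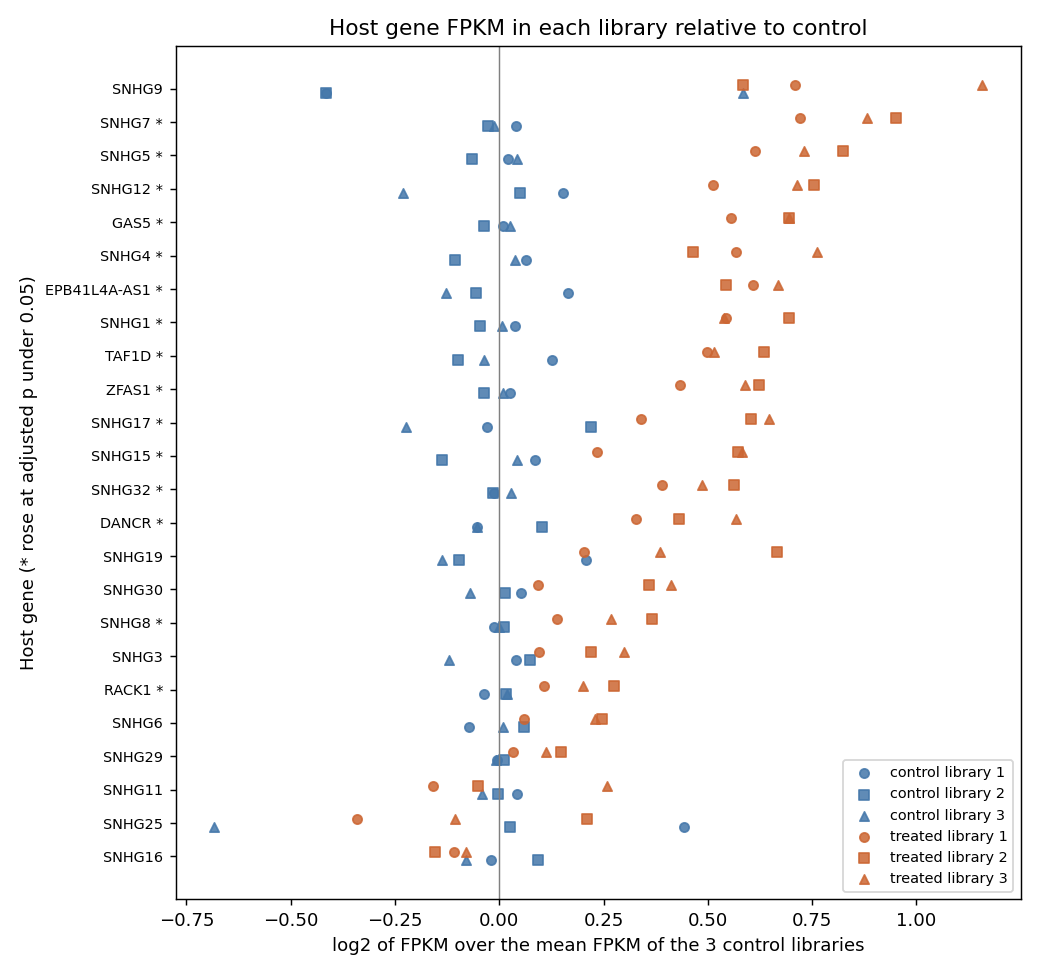
Each point is the FPKM of 1 host gene in 1 library, divided by the mean of the 3 control libraries, on a log2 axis. The 24 tested genes are ordered by fold change, blue points are control and orange points treated libraries, symbols mark library numbers, and stars mark the 15 genes that rose. For those 15 genes every orange point lies to the right of every blue point, with log2 fold changes from 0.16 (RACK1) to 0.82 (SNHG7).

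Of the 24 tested host genes, 15 rose after pectolinarigenin, 9 did not pass the test and none was called lower (edgeR; background 25.3% of all tested genes higher and 25.3% lower). At an unadjusted p under 0.05, 1 host gene was lower, SNHG16, in edgeR and in DESeq2, and limma called 0 lower. The rises were moderate, from 1.12-fold to 1.76-fold, with 4 genes at or above 1.5-fold and 0 at or above 2-fold. The median log2 fold change of the 24 was 0.44, against 0.00071 over all tested genes. In 19 of the 24 the FPKM ranges of the groups did not overlap, and 58.9% of all tested genes had this property. Among tested long non-coding genes that are not host genes of this set, 128 of 995 rose and 214 fell, with a median of -0.072. These counts are set side by side as a description.

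SNHG7, a long non-coding RNA on chromosome 9 (136721366 to 136728184, minus strand, GRCh38), hosts SNORA17 genes. Its control FPKM values were 19.25, 18.36 and 18.54, and its treated values 30.86, 36.16 and 34.47. The groups were far apart, and its log2 fold change of 0.82 (SE 0.065; edgeR adjusted p = 1.59e-07) was the largest among the host genes that rose. SNHG5, host of SNORD50B on chromosome 6 (85660950 to 85678748), had 4.85, 4.57 and 4.93 FPKM in control and 7.32, 8.47 and 7.94 in treated libraries. Its log2 fold change was 0.69 (SE 0.065; edgeR adjusted p = 8.23e-07), without overlap between groups. SNHG12, which holds SNORD99 and several SNORA genes on chromosome 1, was less abundant, with 1.88, 1.75 and 1.44 FPKM against 2.41, 2.85 and 2.77. It rose by 0.62 (SE 0.13; edgeR adjusted p = 0.000849) on the log2 scale.

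GAS5, named for its accumulation in growth-arrested cells, lies on chromosome 1 (173863900 to 173868882, minus strand). Its FPKM values were 25.29, 24.49 and 25.6 in control and 36.92, 40.7 and 40.65 in treated libraries. The control libraries differed by little, every treated library was higher, and the log2 fold change was 0.61 (SE 0.059; edgeR adjusted p = 9.46e-07). SNHG1, host of SNORD22 and SNORD25 to SNORD28 on chromosome 11, had 26.7, 25.19 and 26.15 FPKM in control and 37.91, 42.09 and 37.82 in treated libraries. On the authors' FPKM scale GAS5 and SNHG1 thus had like levels in control cells, with means of 25.1 ± 0.573 and 26 ± 0.764 FPKM (SD, n = 3 each). In treated cells they were again close, at 39.4 ± 2.17 and 39.3 ± 2.44 FPKM (SD, n = 3 each). SNHG1 rose by 0.56 (SE 0.059; edgeR adjusted p = 2.47e-06) on the log2 scale.

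ZFAS1, which starts beside the gene ZNFX1 on the other strand and hosts SNORD12 genes, had 10.55, 10.1 and 10.42 FPKM in control and 13.99, 15.94 and 15.57 in treated libraries. Its log2 fold change was 0.51 (SE 0.062; edgeR adjusted p = 8.54e-06). DANCR, host of SNORA26 and named for its effect on cell differentiation, had 9.61, 10.71 and 9.61 FPKM against 12.53, 13.45 and 14.78. It rose by 0.41 (SE 0.071; edgeR adjusted p = 0.000228). In both genes every treated library was above every control library.

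Another 5 non-coding hosts rose (changes on the log2 scale). SNHG4, which holds SNORA74 genes, rose by 0.57 (SE 0.11), from a mean of 2.66 ± 0.166 to one of 4.04 ± 0.429 FPKM (SD, n = 3 each). EPB41L4A-AS1, host of SNORA13, had means of 1.07 ± 0.115 and 1.63 ± 0.07 FPKM (SD, n = 3 each) and rose by 0.57 (SE 0.14). SNHG17, host of SNORA71 genes, rose by 0.50 (SE 0.12), with means of 1.30 ± 0.201 and 1.88 ± 0.21 FPKM (SD, n = 3 each). EPB41L4A-AS1 had the fewest counts of the genes that rose, 58 to 135 per library. SNHG15, host of SNORA9, rose by 0.44 (SE 0.11), from 4.57, 3.91 and 4.43 to 5.06, 6.40 and 6.44 FPKM. SNHG8, host of SNORA24, rose by 0.22 (SE 0.070; edgeR adjusted p = 0.0144), from 6.42, 6.53 and 6.47 to 7.13, 8.35 and 7.80 FPKM. SNHG8 did not pass without control library 3 (edgeR adjusted p = 0.0520) or without treated library 2 (0.0699).

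GENCODE 29 marks 3 of the tested hosts as protein-coding, and each rose. TAF1D, a subunit of the SL1 complex that brings RNA polymerase I to ribosomal DNA, holds 8 annotated snoRNA genes. Its FPKM values were 12.78, 10.93 and 11.43 in control and 16.55, 18.2 and 16.75 in treated libraries, a log2 fold change of 0.51 (SE 0.066; edgeR adjusted p = 1.73e-05). SNHG32, host of SNORD48 and SNORD52, had 55.41, 55.31 and 56.99 FPKM in control and 73.22, 82.55 and 78.27 in treated libraries, a log2 fold change of 0.44 (SE 0.058; edgeR adjusted p = 2.01e-05). Both genes kept their groups well apart. RACK1, a scaffold protein of the small ribosomal subunit and host of SNORD95 and SNORD96A, had the highest level of all, at 210.78, 218.7 and 218.85 against 232.96, 261.61 and 248.48 FPKM. Its rise was the smallest, at 0.16 (SE 0.058; edgeR adjusted p = 0.0337). RACK1 did not pass without control library 1, 2 or 3 (edgeR adjusted p = 0.117, 0.0933 and 0.103) or without treated library 2 (0.123).

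The 9 host genes that did not pass differed in how close they came. SNHG29, the most abundant of the non-coding hosts, had 103.27, 104.44 and 103.08 FPKM in control and 106.02, 114.88 and 111.91 in treated libraries. Its log2 fold change was 0.061 (SE 0.055; edgeR adjusted p = 0.373), and it did not pass although the FPKM groups did not overlap. SNHG6, host of SNORD87, had 61.72, 67.58 and 65.26 FPKM against 67.53, 76.96 and 76.08 (log2 fold change 0.14, SE 0.065; edgeR adjusted p = 0.0772), with overlapping groups. SNHG16, which holds SNORD1 genes, was lower in treated libraries, at 14.47, 15.63 and 13.88 against 13.6, 13.18 and 13.87 FPKM. Its log2 fold change was -0.15 (SE 0.062; edgeR adjusted p = 0.0517). It passed as lower without control library 3 (edgeR adjusted p = 0.0457) and without treated library 3 (0.0178).

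SNHG3 (0.17, SE 0.080), SNHG30 (0.26, SE 0.12) and SNHG19 (0.38, SE 0.19) had positive log2 fold changes with edgeR adjusted p of 0.0904, 0.0869 and 0.0963. Without treated library 1, SNHG6 (edgeR adjusted p = 0.0111), SNHG3 (0.0332) and SNHG30 (0.0270) passed as higher. The remaining 3 were near the expression limit. SNHG9 rested on 8, 8 and 13 control counts and 15, 14 and 26 treated counts (log2 fold change 0.86, SE 0.38; edgeR adjusted p = 0.0699), and its log2 fold change was 1.22 without control library 3 (0.0328). SNHG25 had 3 to 8 counts per library, and SNHG11 had 104 to 136 counts in control and 102 to 172 in treated libraries. The groups of SNHG11 and SNHG25 overlapped, and their log2 fold changes were -0.0023 (SE 0.14) and -0.13 (SE 0.53).

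The treated libraries were not equal among themselves. Of the 24 tested host genes, 19 had their lowest treated FPKM in treated library 1, 14 had their highest in treated library 2 and 10 in treated library 3. The shares over all tested genes are not given here, so these counts cannot be told apart from a shift of whole libraries. All host gene counts together were 0.304% to 0.308% of the library total in control and 0.353%, 0.392% and 0.379% in treated libraries 1 to 3. Without RACK1, which alone supplied a large part of the counts, the shares were 0.181% to 0.183% and 0.219%, 0.242% and 0.236%. The number of host genes that rose was 14 without control library 1, 2 or 3, and 18, 13 and 15 without treated libraries 1, 2 and 3.

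**Figure D2:**
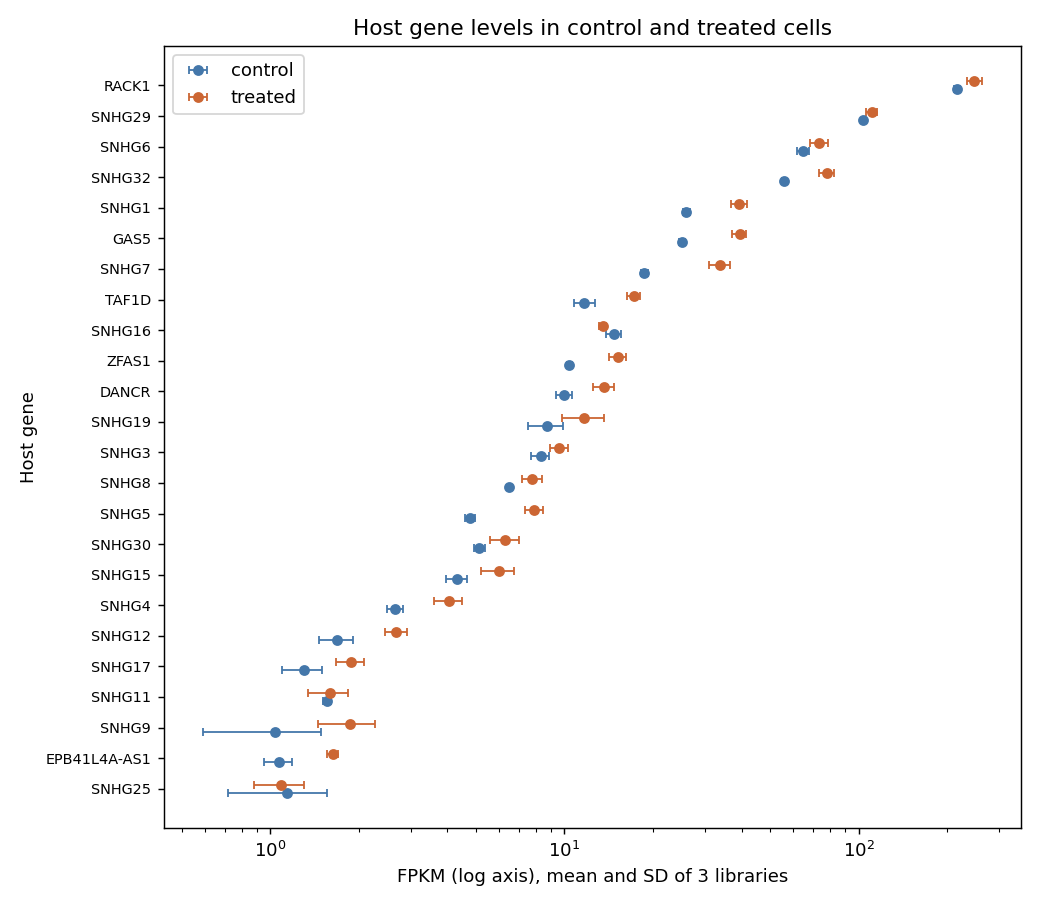
Mean FPKM of each of the 24 tested host genes in control (blue) and treated (orange) libraries, on a log axis, with the SD of 3 libraries as bars. Levels run from about 1 FPKM (SNHG25, EPB41L4A-AS1, SNHG9) to 216.1 FPKM in control cells for RACK1, and genes at very different levels shifted to the right.

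Levels spanned more than 100-fold, from SNHG25 to RACK1, on the authors' FPKM scale. Their order depends on the gene lengths behind that scale. The length implied by each gene's counts and FPKM could be computed for 31 host genes, and for 12 of them it differed by at most 2% from GENCODE 29's summed exons. For others it was longer, by 7.16 times for SNHG8, 4.49 times for SNHG5, 4.45 times for DANCR and 3.71 times for ZFAS1. For SNHG8 (6607 bases) and DANCR (10179 bases) it exceeded the whole gene span in GENCODE 29, at 1115 and 7948 bases. The authors' gene models thus differed from that annotation for these 2, and their counts may include reads from outside its genes. Counts, FPKM and fold changes on GENCODE 29 exons were not computed and may differ. On the authors' scale the control levels of GAS5 and SNHG1, and of SNHG9, EPB41L4A-AS1 and SNHG25, differed by less than the sum of their SDs. The implied length was 1.33 times that of GENCODE 29 for GAS5 and 1.06 times for SNHG1, so the likeness of these 2 depends on that scale.

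Below the limit of 1 FPKM were 10 host genes. They were not part of the main test. In the alternative without an expression filter 4 of them rose, and SNHG18 and SNHG28 could not be fitted. There 7816 of 34374 genes were called in either direction. The share of all genes that rose in that setting is not given here, so the 4 are a description. Some of them were also tested with edgeR's own count filter, and the values below come from the alternative without a filter. SNHG10, host of SCARNA13, had 67, 45 and 51 counts in control and 122, 130 and 105 in treated libraries (log2 fold change 1.12, SE 0.17; edgeR adjusted p = 6.56e-10). SNHG26, host of SNORD93, had 48, 47 and 47 against 66, 75 and 105 (0.76, SE 0.19; edgeR adjusted p = 0.000399). In both genes every treated count was above every control count. SNHG21, host of SCARNA15, had 6, 10 and 3 against 22, 14 and 14 counts (1.37, SE 0.43; edgeR adjusted p = 0.00821), and SNHG20, host of SCARNA16, 23, 27 and 23 against 44, 41 and 38 (0.73, SE 0.25; edgeR adjusted p = 0.0190). The counts of SNHG22 (23, 35 and 30 against 20, 21 and 29) and SNHG31 (16, 24 and 26 against 31, 11 and 27) overlapped. SNHG27 had 9 counts in each group and SNHG14 had 14 in control and 9 in treated libraries. SNHG18 and SNHG28 had 0 counts in all libraries, and 3 counts, the limit that a count of 0 allows for counting error, correspond to 0.148 to 0.198 CPM (counts scaled to the library total).

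The snoRNAs that these genes carry were barely counted in this table. GENCODE 29 places 154 snoRNA and scaRNA genes (the latter act in Cajal bodies) inside the host genes on the same strand, 84 of them in SNHG14, and none in GAS5, which is known to hold several. Of the 154, 13 had any counts, 306 in all over the 6 libraries. The 54 that lie wholly within annotated exons of their host, such as those of retained-intron transcripts, had 0 counts without exception. Of the 95 outside host exons 12 had counts. The same division held for snoRNA genes inside any annotated host: 0 of 147 wholly in host exons and 170 of 424 outside host exons had counts. The division uses GENCODE 29 exons, and the authors' gene models may differ from them for some hosts. How reads that lie on 2 genes were assigned is not given in the sources used here. For snoRNAs such as SNORD22 in SNHG1 the zeros are therefore no measure of the mature RNA.

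The 4 snoRNA genes with at least 30 counts can be set beside their hosts. All 4 lie outside annotated host exons, and whether their counts measure the mature RNA was not tested. SNORD6, in TAF1D on chromosome 11, had 8, 3 and 6 counts in control and 14, 10 and 12 in treated libraries (log2 fold change 1.02, SE 0.46; edgeR adjusted p = 0.0755). SNORD104, in SNHG25 on chromosome 17, had 24, 15 and 15 against 7, 9 and 15 (-0.84, SE 0.36; edgeR adjusted p = 0.0625). These 2 leaned in opposite directions and neither passed. SNORA73B, in SNHG3, had 9, 4 and 9 against 6, 7 and 6 counts (-0.25, SE 0.50), and SNORA71B, in SNHG17, had 5, 8 and 8 against 8, 5 and 9 (0.019, SE 0.47). Of the 8 snoRNA genes inside host genes that were tested, edgeR and DESeq2 called 0 changed. At an unadjusted p under 0.05 there were 2 in edgeR and 0 in DESeq2. With limma on log2(FPKM + 1), 4 were called (SNORD6, SNORD99, SNORD7 and SNORD104), 3 higher and 1 lower. That setting called 6093 of all 12829 tested genes in either direction.

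Genes that start within 1000 bases of a host gene on the other strand did not share one direction. SLC3A2, a subunit of amino acid transporters, starts beside SNHG1 on chromosome 11. The 216 bases between the RefSeq start of SNHG1 and the farthest upstream GENCODE start of SLC3A2 (chr11:62855886-62856101, minus strand, so that the run ends at the base before SNHG1 begins) are printed because both genes next to them rose. They hold 63.9% G and C, and neither CACGTG nor TGATGCAA.
SNHG1 upstream: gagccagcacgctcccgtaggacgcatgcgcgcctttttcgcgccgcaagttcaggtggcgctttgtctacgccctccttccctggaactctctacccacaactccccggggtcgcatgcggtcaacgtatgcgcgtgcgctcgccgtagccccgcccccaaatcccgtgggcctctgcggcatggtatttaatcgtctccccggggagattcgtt
The RefSeq table places the start of SLC3A2 elsewhere, so this nearness rests on GENCODE transcripts. SLC3A2 went from 17.5 to 65.6 FPKM, a log2 fold change of 1.87 (SE 0.064; edgeR adjusted p = 2.53e-11). The ratio of SNHG1 to SLC3A2 counts was 0.996, 0.868 and 0.917 in control and 0.387, 0.391 and 0.340 in treated libraries, so SLC3A2 rose more. The groups did not overlap, and the exact permutation test (2-sided) gave p = 0.1, the smallest that 3 against 3 libraries allow.

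GAS5 and ZBTB37, a zinc finger gene whose start is 800 bases away, moved in opposite directions. ZBTB37 went from 2.69 to 1.49 FPKM (log2 fold change -0.89, SE 0.11; edgeR adjusted p = 8.95e-06). The ratio of GAS5 to ZBTB37 counts was 2.38, 2.23 and 2.36 in control and 5.27, 6.31 and 8.85 in treated libraries (exact permutation p = 0.1, the smallest possible). ZNFX1, which starts 248 bases from ZFAS1, had a log2 fold change of 0.12 (SE 0.087; edgeR adjusted p = 0.282), and the ZFAS1 to ZNFX1 ratio was 2.49, 2.32 and 2.48 in control and 2.53, 3.57 and 3.63 in treated libraries. Treated library 1 was close to the control libraries in that ratio. RPS2, a ribosomal protein gene beside SNHG9, had -0.0088 (SE 0.058), and TRAF7, beside SNHG19, 0.12 (SE 0.058; edgeR adjusted p = 0.107). TRAF7 passed as higher without treated library 3 (0.17; edgeR adjusted p = 0.0126). Of the neighbours of hosts below 1 FPKM, ACAA2 (beside SNHG22) rose by 0.30 (SE 0.067) and BARD1 (beside SNHG31) fell (-0.53, SE 0.074).

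**Figure D3:**
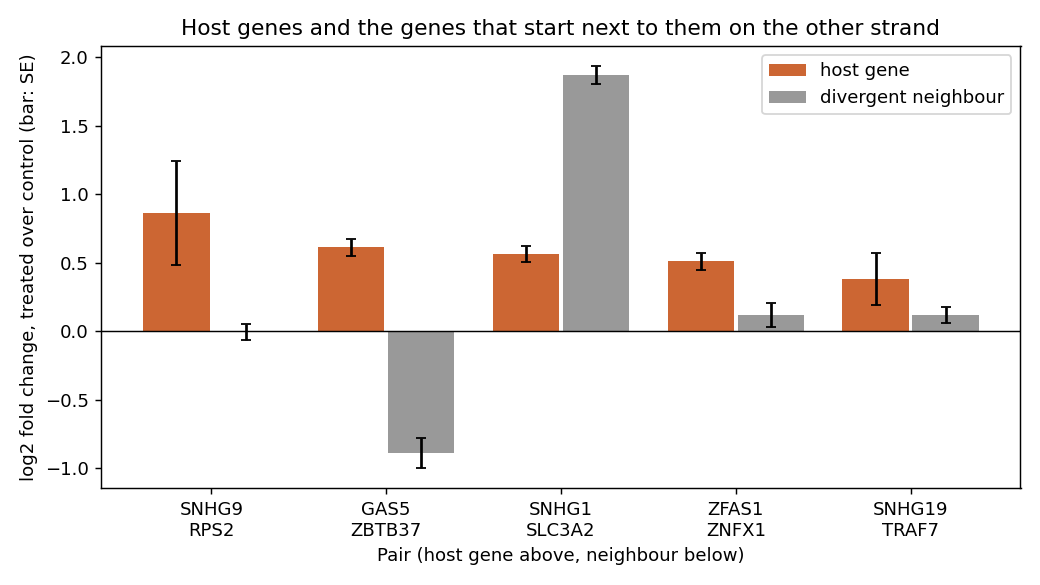
Log2 fold changes (bars) with SE for 5 tested host genes (orange) and the gene that starts within 1000 bases on the other strand (grey). SLC3A2 rose by 1.87 beside SNHG1 at 0.56, and ZBTB37 stood at -0.89 beside GAS5 at 0.61.

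Some host gene exons overlap exons of another gene, and the strand setting of the counting is not given in the sources used here, so reads there may not be told apart. DIPK1B covers 1094 bases (25.2%) of SNHG7's exons on the other strand and rose by 0.25 (SE 0.062; edgeR adjusted p = 0.00324), less than SNHG7. GLRX5 covers 20.1% of SNHG10's exons and rose by 0.42 (SE 0.066). ZNFX1 covers 11.1% of the exons of ZFAS1, and RCC1 (0.019, SE 0.060) shares 242 bases with SNHG3 on the same strand. GAS5-AS1 covers 42 bases of GAS5 exons and had -0.15 (SE 0.24). The partners CEP295 and C11orf54 (TAF1D), TRNAU1AP (SNHG12), SNORD7 (SNHG30), SIL1 (SNHG4), CTC-338M12.4 (RACK1) and UBE3A (SNHG14) covered 0.2% to 4.5% of a host's exons, and of these CEP295 fell (-0.41, SE 0.090). Next to hosts below 1 FPKM, SEC14L1 (-0.26, SE 0.071), which shares 460 bases with SNHG20, and MYO5B (-0.43, SE 0.082), which covers 229 bases of SNHG22 exons, fell.

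**Figure D4:**
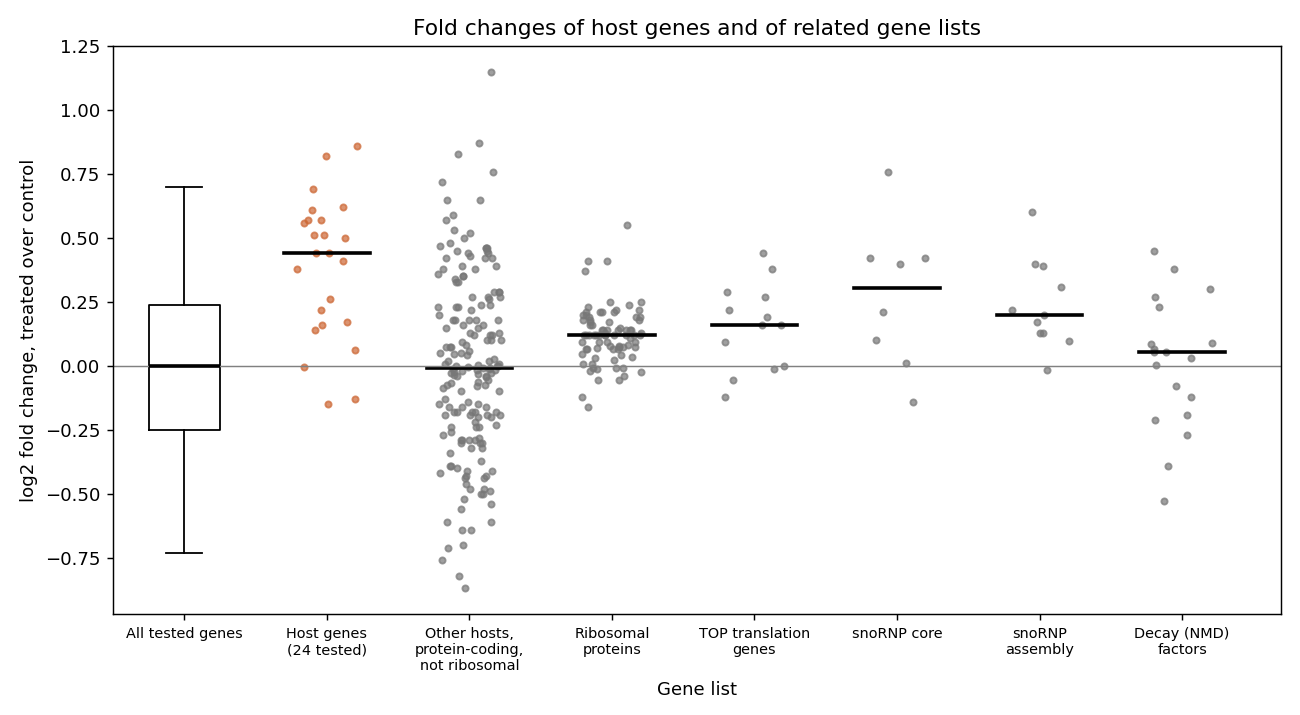
Each point is the log2 fold change of 1 tested gene, treated over control, and black lines are medians. The box for all tested genes spans the 25th to 75th percentile with whiskers at the 5th and 95th. The 24 host genes (orange) have a median of 0.44 and ribosomal proteins, found by symbol (RPL, RPLP or RPS and a number), 0.12. The other protein-coding hosts without such a symbol, RPSA among them, have a median of -0.0091.

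For other genes with snoRNA genes inside them, GENCODE 29 gave 270 other protein-coding hosts in the table, of which 202 were tested. Of these, 64 rose (31.7%) and 53 fell (26.2%), with a median log2 fold change of 0.018, where 25.3% of all tested genes rose and 25.3% fell. Among the 27 with a ribosomal protein symbol (RPL, RPLP or RPS and a number) 11 rose and 16 did not pass. Of the other 175 genes 53 rose and 53 fell. These 175 include RPSA, a ribosomal protein gene without such a symbol (-0.0074, SE 0.054). By smallest p, those that rose were led by HSPA8, a cytosolic chaperone (1.15, SE 0.055), NOP58, a core protein of box C/D snoRNA particles (0.76, SE 0.072), EIF3A, a translation initiation factor (0.53, SE 0.052), WDR43, a ribosome biogenesis factor (0.65, SE 0.075), and AIMP2, a scaffold of aminoacyl-tRNA synthetases (0.83, SE 0.095). Those that fell were led by the splicing factor SF3B3 (-0.61, SE 0.052), the calcium pump ATP2B4 (-0.76, SE 0.072), DENND4A (-0.61, SE 0.062), the microtubule regulator CKAP5 (-0.64, SE 0.065) and MALRD1 (-0.82, SE 0.091). Of 5 tested non-coding hosts outside the set, PCAT4 (1.08, SE 0.15) and GPRC5D-AS1 (0.33, SE 0.11) rose and TMEM161B-AS1 (-0.59, SE 0.13) fell.

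Proteins that bind or build snoRNA particles were counted in 2 lists, beside a background of 25.3% of all tested genes that rose. Of 8 core proteins 5 rose (62.5%) and 3 did not pass: NOP58 (above), NOP56 (0.42, SE 0.057), the pseudouridine synthase DKC1 (0.42, SE 0.061) and GAR1 (0.40, SE 0.10) had the smallest p-values. FBL, the methyltransferase of box C/D particles, had 0.011 (SE 0.071) and was named after its value was seen. Without treated library 3, 4 of the 8 rose and 1, SNU13, fell (-0.16; edgeR adjusted p = 0.0327). Of 11 assembly factors 6 rose (54.5%) and 5 did not pass, led by SHQ1 (0.60, SE 0.12), RPAP3 (0.31, SE 0.065), ZNHIT6 (0.40, SE 0.085) and NUFIP1 (0.39, SE 0.098).

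TAF1D's partners in RNA polymerase I initiation showed 5 of 10 higher (50%, against 25.3% of all tested genes) and 5 that did not pass. RRN3, which recruits the polymerase to the promoter, rose from 12 to 18.7 FPKM (log2 fold change 0.61, SE 0.070), and POLR1B (0.31, SE 0.067), UBTF (0.26, SE 0.063) and POLR1G (0.43, SE 0.13) rose too. The other SL1 subunits were at 0.29 (TAF1C, SE 0.095, which rose), 0.19 (TAF1A, SE 0.12), 0.12 (TAF1B, SE 0.090) and 0.14 (TBP, SE 0.073).

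Transcripts with TOP starts were compared through 2 further lists. Of 13 tested TOP genes of translation 8 rose (61.5%, against 25.3% of all tested genes) and 5 did not pass, with EEF1B2 (0.44, SE 0.056), TPT1 (0.38, SE 0.060), EIF3F (0.27, SE 0.055) and NAP1L1 (0.29, SE 0.064) at the smallest p-values. Their median was 0.16. Of 82 tested cytosolic ribosomal proteins 25 rose (30.5%, against 25.3% of all tested genes) and 57 did not pass, with a median of 0.12, and RPL22L1 (0.55, SE 0.083), RPL28 (0.37, SE 0.068), RPL14 (0.25, SE 0.057) and RPL15 (0.25, SE 0.055) had the smallest p-values. Without TMM factors 46 of the 82 rose, and without treated library 3 RPL7L1 fell (-0.16; edgeR adjusted p = 0.0118). Ribosomal protein genes have many near-identical pseudogenes, so their counts are uncertain.

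Among 12 regulators of TOP mRNA translation and of the kinase complex mTORC1, 6 rose (50%) and 2 fell (16.7%), where 25.3% of all tested genes rose and 25.3% fell. EIF4EBP1, a translation repressor that mTORC1 inactivates (0.62, SE 0.081), the mTORC1 inhibitor TSC2 (0.50, SE 0.088) and the activator RHEB (0.31, SE 0.065) rose. The mTORC1 subunits RPTOR (-0.31, SE 0.072) and AKT1S1 (-0.23, SE 0.064) were the 2 that fell. Members with opposite roles therefore rose together. LARP1, which binds TOP mRNAs, had -0.10 (SE 0.056) and did not pass, and it was named after its value was seen.

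Of 19 tested factors of nonsense-mediated decay, 5 rose (26.3%), 5 fell (26.3%) and 9 did not pass, near the 25.3% of all tested genes in each direction. Their median was 0.054. The decapping enzyme DCP2 fell from 4.78 to 3.72 FPKM (log2 fold change -0.39, SE 0.078; edgeR adjusted p = 0.000681). The exon junction protein RBM8A (0.38, SE 0.059) and UPF3A (0.30, SE 0.060) rose. The central helicase UPF1, named after its value was seen, stood at 33.5 and 35.7 FPKM (0.056, SE 0.052) and did not pass.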

How the data were processed

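RNA of 6 libraries was analysed, 3 per group, mapped to groups by their titles. The authors' deposited table gave raw counts per gene (whole numbers, not normalized) and FPKM values, which per the file headers are a second column per library. Per the submitters' processing notes, the build was GRCh38 and the tools were HISAT2 2.0.1, HTSeq 0.6.1 and cutadapt 1.9.1. For the annotation release and the strand setting: not given in the sources used here. Total counts were 15140022 to 20311261.

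Host genes were found by symbol. Genes with a mean FPKM of at least 1 were tested on counts with edgeR 4.0.16 (R 4.3.3), quasi-likelihood, TMM factors, no covariate, 2-sided, Benjamini-Hochberg over 12829 genes, threshold 0.05. Standard errors came from the F statistic. The procedure was also run on simulated counts, with far fewer changed genes than were called here and a single dispersion for all genes. The outcome of that run is not reported here. Alternatives used DESeq2 1.42.0, limma 3.58.1, other scalings and filters, a replicate block and leaving out each library. Fold changes are treated over control on the log2 scale. Positions, gene types and snoRNA genes came from GENCODE 29 by identifier, and promoter windows from RefSeq by symbol.

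The host genes and gene lists were chosen with earlier results of these data known. Genes were named by rule: every host gene, and per list up to 4 tested genes with the smallest p and any called gene against the list's majority. The rule also named snoRNA genes with at least 30 counts, the 5 other hosts with the smallest p in each direction, and neighbours with at least 1 FPKM. Some genes that this rule names are not reported here. Same-numbered libraries did not deviate together (correlation of deviations -0.00251, 0.0164 and 0.00181), so the numbers were not taken to pair them. No within-group pair of libraries agreed within sampling noise (chi-square per degree of freedom 1.50 to 9.85).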

Additional observations from a re-analysis of the deposited data

How the results depend on the processing

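Of the 15 host genes that rose, 13 kept their call in every alternative in which they were tested, and the exceptions were RACK1 and SNHG8 when single libraries were left out. The number that rose was 15 with DESeq2, median-of-ratios scaling or a replicate block, 17 without scaling factors, 19 with limma, 11 of 17 tested at a mean FPKM of at least 5, 19 with edgeR's own count filter (29 tested) or with no filter (32 tested), and 13 to 18 without single libraries. The replicate block called 6540 genes in all and changed the call of no host gene. Same-numbered libraries shared only a number. The number of host genes that fell was 1 (SNHG16) with median-of-ratios scaling and 1 when only genes with a mean FPKM of 5 or more were tested, and 0 to 1 without single libraries. Over all genes, 4099 of 7144 were called at a mean FPKM of at least 5, where fewer genes were tested. Totals were 5782 of 12829 with DESeq2, 6544 without scaling factors and 6093 and 6045 in limma (pseudocounts 1 and 0.1). They were 7630 of 16446 with edgeR's own count filter and 7816 of 34374 with no filter. The median log2 fold change of all tested genes was 0.038 without scaling factors, 0.030 and 0.035 in limma, and 0.00071 in the main test. The shares that rose are not given here, so larger host gene counts cannot be told apart from such shifts. Of the snoRNA genes inside hosts, limma called 4 with a pseudocount of 1 and 4 with 0.1, and 0 to 1 were called without single libraries. The cause of these differences was not tested.

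Changes of sign concerned values near 0 that passed in no setting. SNHG11 was at 0.034 without scaling factors, 0.016 with edgeR's count filter, 0.016 and 0.013 in limma (pseudocounts 0.1 and 1), 0.020 without a filter, and 0.023, 0.082 and 0.045 without control library 1 and treated libraries 1 and 2. RPS2 was at 0.029, 0.0088, 0.028, 0.028 and 0.013 under the same 5 settings, and at 0.013 and 0.030 without control library 3 and treated library 1. SNHG25 was at 0.15 without control library 1. Without single libraries the ranges were -0.15 to 0.082 (SNHG11), -0.048 to 0.030 (RPS2) and -0.34 to 0.15 (SNHG25). Depth limits SNHG9, SNHG25 and the snoRNA genes, which rest on few counts.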
